A study of Homo sapiens with 6 samples.

Results

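Metallothioneins are small cysteine-rich proteins that bind zinc, copper and cadmium, and they are used as a measure of metal exposure and of oxidative stress in the renal proximal tubule. Their genes are switched on by MTF1, a zinc-sensing transcription factor that binds short metal response elements (MREs) near their start sites, and the same factor is known to act on SLC30A1, which encodes the zinc exporter ZnT1. Glucocorticoids and oxidants also raise metallothionein transcription. The genes described here are 8 rows of the gene count table, picked by symbol: the metallothioneins MT2A, MT1X, MT1E, MT1F, MT1G and MT1M, the regulator MTF1 and the exporter SLC30A1. They are 8 of 62754 genes in the table, and 7 of them were among the 19874 genes with enough counts to be tested.

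The libraries came from HK-2 cells, an immortalised line from human proximal tubule, all exposed to Cisplatin. In the CP+siNC group (n = 3) the cells carried a negative control siRNA, and in the CP+siNAT10 group (n = 3) an siRNA against NAT10, an RNA acetyltransferase; the siRNA sequences are not given in the sources used here. For HK-2 cells the methods settled on Cisplatin at 20 μM over 24 hours, while the sample labels give neither dose nor time. The comparison asks how the transcripts of cells under Cisplatin differ when NAT10 is silenced. No library without Cisplatin was analysed here, so the effect of Cisplatin itself was not measured. The labels number the samples as cells 1 to 3 of each group and do not say that they were separate cultures, so p-values measure only the spread between these samples, which may be technical. Levels are CPM, counts per 1000000 of the library size scaled by TMM, and values after ± are SDs over 3 libraries. Total counts per library ran from 19321665 to 25192736, so that 1 count equals 0.0394 to 0.0531 CPM.

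NAT10 was measured first as a check of the labels. It stood at 75.8, 71.4 and 73.2 CPM in the CP+siNC libraries and at 41.3, 40.5 and 42.4 CPM in the CP+siNAT10 libraries. The groups did not overlap, and NAT10 was at 56.4% of control (log2 fold change -0.82, SE 0.0426, adjusted p = 2.79e-15, from the quasi-likelihood test of edgeR, adjusted by Benjamini-Hochberg over 19874 genes, as for every adjusted p given here unless another tool is named). The NAT10 level of all 6 libraries thus went with their labels.

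The cell type was checked against markers. Of 6 epithelial genes, the keratin KRT8 led with 1455 ± 21.1 CPM with siNC and 1450.0 ± 18.7 CPM with siNAT10, and 5 were abundant enough to test, while the adhesion gene CDH1 was at or near 0 in both groups. KRT18 fell (log2 fold change -0.36, adjusted p = 3.79e-10), while EPCAM (0.31, adjusted p = 0.000902) and CDH2 (0.20, adjusted p = 0.000141) rose. The summed level of these 6 genes was 2037 to 2094 CPM with siNC and 1985 to 2016 CPM with siNAT10. Of 10 proximal tubule genes, 5 could be tested, led by PAX8 and GGT1, and their sum was 85.2 to 89.0 CPM with siNC and 92.1 to 99.2 CPM with siNAT10. PAX8 rose from 31.4 ± 1.34 to 47.2 ± 4.48 CPM (log2 fold change 0.59, SE 0.0574, adjusted p = 1.58e-09), and GGT1 fell from 33.2 ± 0.177 to 27.4 ± 1.92 CPM (log2 fold change -0.28, SE 0.0537, adjusted p = 9.92e-05). Among the other listed transporters, receptors and enzymes of the differentiated tubule, LRP2, CUBN, SLC34A1, SLC22A6 and ANPEP had group means of at most 0.307 CPM. The glucose transporter SLC5A2, named after its value was seen, rose from 9.30 ± 0.864 to 11.5 ± 0.104 CPM (log2 fold change 0.31, adjusted p = 0.00363). The water channel AQP1, also named after its value was seen, was at 1.03 ± 0.216 CPM with siNC and 0.694 ± 0.161 CPM with siNAT10 (adjusted p = 0.111). Of 3 leukocyte genes, CD68, which encodes a lysosomal protein, made up nearly all of a sum of 198 to 216 CPM with siNC and 265 to 288 CPM with siNAT10, and it rose (log2 fold change 0.40, adjusted p = 7.97e-10). The leukocyte gene PTPRC was at 0.418 ± 0.0521 CPM with siNC and 0.824 ± 0.446 CPM with siNAT10 (adjusted p = 0.0411), and CD3E had group means of at most 0.316 CPM. The 3 endothelial genes summed to at most 0.514 CPM in any library. The 3 fibroblast genes summed to 21.4 to 22.9 CPM with siNC and to 22.8 to 29.2 CPM with siNAT10, led by LUM, which did not pass the test (adjusted p = 0.806), and COL1A1, which rose (log2 fold change 0.38, adjusted p = 0.000622). The part of these marker differences in the results below was not tested. In bulk RNA, fewer cells with a transcript and less of it per cell cannot be told apart.

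The upstream sequences are shown because MTF1 acts through MREs and because these genes moved in different directions. Upstream sequence from RefSeq (GRCh38.p14) was matched for 4 of the 8 genes, MT2A, MT1X, MTF1 and SLC30A1; MT1E, MT1F, MT1G and MT1M had no entry. The 250 bases before each RefSeq start were searched on both strands for the MRE cores TGCACNC and TGCGCNC, which cannot both match at one position; no matches overlapped in these 4 genes. MT2A held 7 matches, MT1X 4, SLC30A1 1 and MTF1 0. At least 1 match was present in 24.8% of 35116 upstream windows of the same length, at least 4 in 0.370% and at least 7 in 0.0313%. A match is a description of the letters and not a measured binding site. In the sequences that follow, written 5′ to 3′ on the strand of the gene, capitals mark the cores. For MT2A the first base of the cores lay 8 to 246 bases before the start. GENCODE 29 has a longer MT2A transcript whose exon covers that whole window, so only the 2 cores nearest the start are shown, at chr16:56608566-56608583 and chr16:56608520-56608546 (plus strand). For MT1X, chr16:56682220-56682423 (plus strand) is shown, the 204 bases of its window outside annotated exons. For SLC30A1 the whole window is shown, chr1:211579162-211579411 (minus strand), which lies in no annotated exon of that gene.
MT2A site 1: cttgccgcgcTGCACTCc
MT2A site 2: gcggggctttTGCACTCgtcccggctc
MT1X upstream: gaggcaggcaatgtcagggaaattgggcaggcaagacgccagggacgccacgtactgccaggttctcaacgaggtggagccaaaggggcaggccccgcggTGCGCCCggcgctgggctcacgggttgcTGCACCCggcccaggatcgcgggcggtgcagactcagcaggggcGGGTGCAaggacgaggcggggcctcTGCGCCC
SLC30A1 upstream: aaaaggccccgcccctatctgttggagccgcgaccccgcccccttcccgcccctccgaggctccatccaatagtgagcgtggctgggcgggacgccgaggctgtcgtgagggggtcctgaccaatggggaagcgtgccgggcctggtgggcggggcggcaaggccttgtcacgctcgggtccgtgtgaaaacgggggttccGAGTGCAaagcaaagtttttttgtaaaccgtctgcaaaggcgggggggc

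Metallothioneins sit side by side in a cluster, and their coding sequences are near copies. Over the 186 coding bases that the 5 tested metallothioneins each have in GENCODE 29, the 10 pairs were 88.7% to 92.5% identical, and 152 positions were the same in all 5. The reads were sequenced as pairs of 150 bases per the study's methods. Of the 150-base windows of the MT2A, MT1E, MT1F, MT1G and MT1M reference transcripts, 100% occurred in no transcript of another gene, against 94.4% for MT1X. With 50-base windows the share was 95.1% for MT2A, 94.7% for MT1E, 96.4% for MT1F, 92.9% for MT1M, 79.8% for MT1G and 54.9% for MT1X. The MT2A reference transcript is the longer form, which takes in the 250 bases before the start of the counted gene. The shares of MT2A without those bases were not calculated. How reads that matched more than 1 gene were counted is not given in the sources used here, so the split of counts among these paralogs is uncertain, most of all for MT1X.

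MT2A, the main metallothionein of human cells (ENSG00000125148, GRCh38 chr16:56608584-56609497, plus strand), fell when NAT10 was silenced. Its counts were 1814, 2112 and 1872 in the CP+siNC libraries and 1112, 1140 and 1479 in the CP+siNAT10 libraries. These correspond to 96.3, 98.7 and 97.2 CPM against 52.8, 52.2 and 58.3 CPM. Every CP+siNAT10 library lay below every CP+siNC library, and the third CP+siNAT10 library was the highest of its group. The mean went from 97.4 ± 1.17 to 54.4 ± 3.40 CPM, or 55.9% of control (log2 fold change -0.84, SE 0.0423, 95% confidence interval -0.92 to -0.75, adjusted p = 1.74e-15). By size of fall MT2A ranked 153 among the 12304 tested genes that averaged 5 CPM or more. It was also the most abundant of the 8 genes, at rank 533 of 19874 by level per kilobase of the gene length given in the count table.

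**Figure D1:**
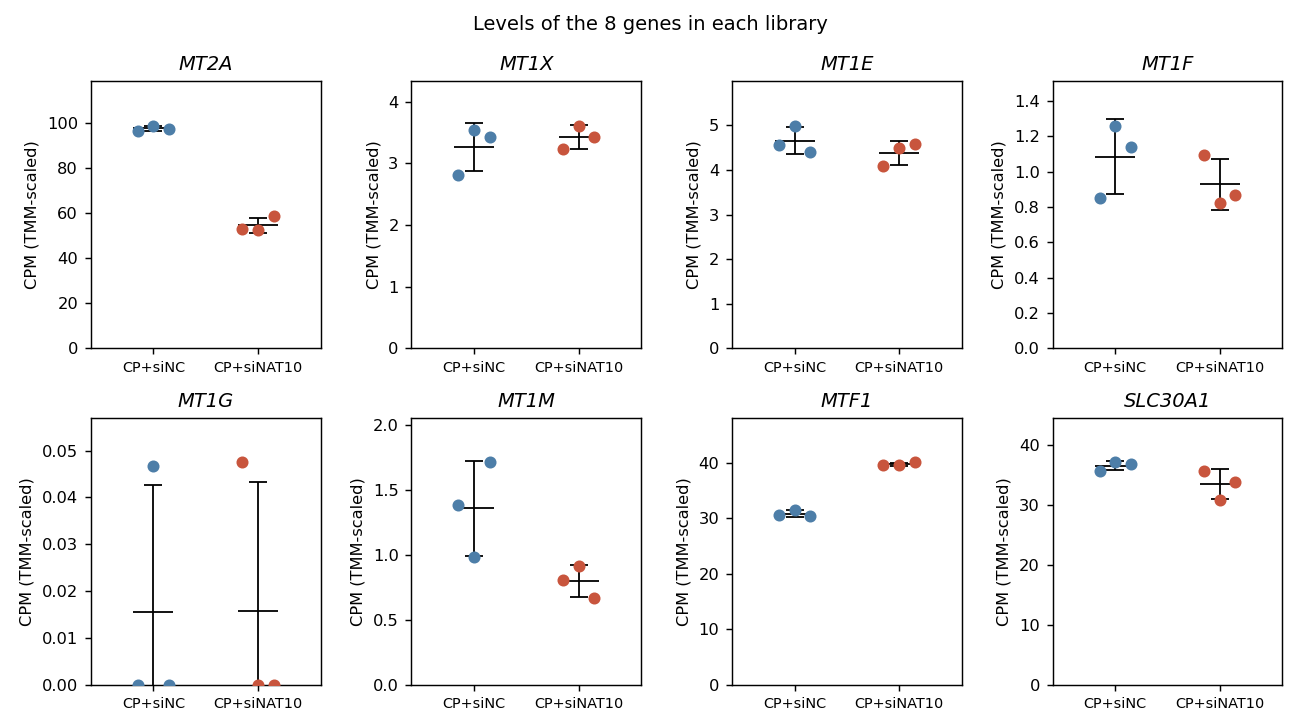
Level of each of the 8 genes (CPM on the TMM-scaled library size, each panel on its own axis from 0) in the 3 CP+siNC (blue) and 3 CP+siNAT10 (red) libraries, with the mean and SD as black lines. MT2A drops from a mean of 97.4 to 54.4 CPM and MTF1 climbs from 30.9 to 39.8 CPM without overlap, and the MT1G points stand for 0 or 1 count.

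The other metallothioneins had far fewer counts, and 1 of them passed the test. MT1M (ENSG00000205364, chr16:56632659-56633981, plus strand) was at 1.38, 0.981 and 1.71 CPM with siNC and at 0.807, 0.915 and 0.671 CPM with siNAT10. The groups did not overlap, though the closest libraries were 0.981 and 0.915 CPM, and the counts were 17 to 33 per library. MT1M fell from 1.36 ± 0.367 to 0.798 ± 0.122 CPM (log2 fold change -0.76, SE 0.265, 95% confidence interval -1.31 to -0.22, adjusted p = 0.0204). This call was lost in 4 of 12 alternatives: the adjusted p was 0.0559 when CP+siNC replicate 1 was left out, 0.143 when replicate 3 of that group was, 0.0957 when CP+siNAT10 replicate 3 was, and 0.128 with DESeq2, and over all 12 alternatives it ran from 0.00652 to 0.143.

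MT1E (ENSG00000169715, chr16:56625475-56627112, plus strand) was at 4.57, 5.00 and 4.41 CPM with siNC and at 4.08, 4.48 and 4.58 CPM with siNAT10. The groups overlapped and the difference did not pass the test (log2 fold change -0.09, 95% confidence interval -0.34 to 0.16, adjusted p = 0.590). MT1X (ENSG00000187193, chr16:56682470-56684196, plus strand) was at 2.81, 3.55 and 3.43 CPM with siNC and at 3.23, 3.61 and 3.43 CPM with siNAT10. Its libraries overlapped as well (log2 fold change 0.07, 95% confidence interval -0.23 to 0.36, adjusted p = 0.749), and the interval excludes a fall as large as that of MT2A. MT1F (ENSG00000198417, chr16:56657731-56660698, plus strand) was at 0.850, 1.26 and 1.14 CPM with siNC and at 1.09, 0.824 and 0.868 CPM with siNAT10. With 16 to 27 counts per library, its interval was wide (log2 fold change -0.24, 95% confidence interval -0.77 to 0.29, adjusted p = 0.484).

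MT1G (ENSG00000125144, chr16:56666730-56668065, minus strand) was low: 1 count in 1 library of each group and 0 in the others. Both groups were under the level of 3 counts that a count of 0 allows, 0.118 to 0.159 CPM, so no fold change is given. Such floors and intervals on counts cover counting error only. The 16 further rows of metallothionein genes and pseudogenes, which stand for 15 of 16 listed symbols, were also too low to test. The highest of them was MT1A, at 0.483 ± 0.154 CPM with siNC and 0.316 ± 0.106 CPM with siNAT10.

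MT1X shares its first exons with another gene on the same strand, ENSG00000259827, a readthrough transcript that starts at the same base. In GENCODE 29 that gene covers 165 of the 450 bases of the MT1X transcript and 94 of its 186 coding bases, so MT1X reads may have been lost or moved to it. The overlapping gene itself was at 2.57 ± 0.299 CPM with siNC and 2.48 ± 0.273 CPM with siNAT10 (log2 fold change -0.05, adjusted p = 0.824). With its counts added to those of MT1X, a choice made after seeing the data, the log2 fold change was 0.01 (95% confidence interval -0.22 to 0.25, adjusted p = 0.934).

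The 6 metallothioneins were then summed, since a sum does not depend on how reads were divided among them. The sum was 106, 109 and 108 CPM with siNC and 62.1, 62.0 and 67.9 CPM with siNAT10. The mean went from 107.8 ± 1.77 to 64.0 ± 3.38 CPM, or 59.4% of control, with no test of the sum. MT2A carried nearly all of that difference: without it the sum was 10.4 ± 0.670 CPM with siNC and 9.55 ± 0.287 CPM with siNAT10, or 92.0% of control.

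MT2A also changed relative to its relatives inside each library, a comparison that needs no scaling between libraries. Its share of the summed counts of the 6 metallothioneins was 90.9%, 90.1% and 90.1% in the CP+siNC libraries and 85.1%, 84.1% and 85.9% in the CP+siNAT10 libraries. The exact (Clopper-Pearson) 95% intervals reached down to 88.7% with siNC and up to 87.5% with siNAT10, so they did not overlap between groups. MT2A had 27.8 to 34.2 counts for each MT1X count with siNC and 14.4 to 17.0 with siNAT10. The log2 ratio of MT2A to MT1X was 4.91 ± 0.166 with siNC and 3.99 ± 0.124 with siNAT10. Over MT1E it was 4.39 ± 0.0796 and 3.64 ± 0.0829, and over MT1F it was 6.51 ± 0.281 and 5.88 ± 0.253. For these 3 pairs the groups did not overlap, and the two-sided exact permutation p was 0.10, the smallest that 3 against 3 libraries can give (0.133 adjusted over the 4 pairs by Benjamini-Hochberg). Over MT1M the log2 ratio was 6.20 ± 0.418 and 6.10 ± 0.311, and the libraries overlapped (exact permutation p = 0.70).

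**Figure D2:**
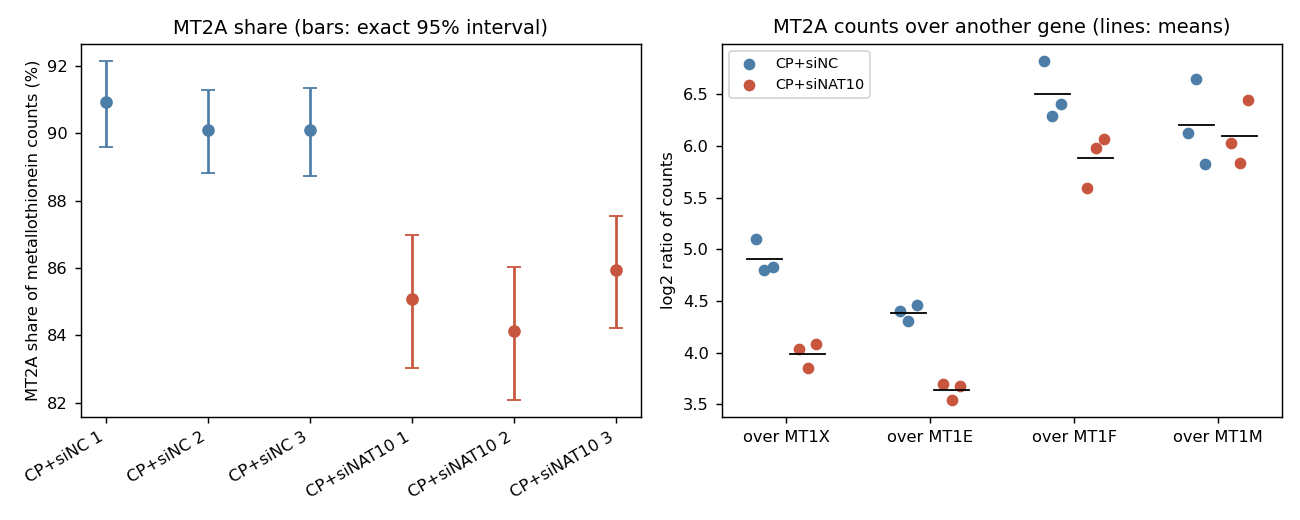
Left, share of the 6 metallothioneins' counts that fell to MT2A (percent, axis not from 0) in each library, with exact 95% intervals; right, log2 ratio of MT2A counts to those of 4 other metallothioneins, 1 point per library and a line at each mean, CP+siNC in blue and CP+siNAT10 in red. The share is 90.1% to 90.9% with siNC and 84.1% to 85.9% with siNAT10, and the groups separate over MT1X, MT1E and MT1F but not over MT1M.

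MTF1, the regulator (ENSG00000188786, chr1:37809574-37859592, minus strand), moved the other way. It was at 30.7, 31.5 and 30.4 CPM with siNC and at 39.6, 39.6 and 40.1 CPM with siNAT10. Every CP+siNAT10 library lay above every CP+siNC library, with little spread inside either group. The mean rose from 30.9 ± 0.596 to 39.8 ± 0.317 CPM, or 129% of control (log2 fold change 0.36, SE 0.0474, 95% confidence interval 0.27 to 0.46, adjusted p = 2.76e-07). Among the tested genes that averaged 5 CPM or more, 90.7% had a lower log2 fold change. A gene on the opposite strand inside MTF1, ENSG00000235673, had 0 or 1 count in every library. The transcript level does not measure the activity of MTF1, which depends on zinc.

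SLC30A1, the zinc exporter (ENSG00000170385, chr1:211571568-211579161, minus strand), was at 35.6, 37.1 and 36.8 CPM with siNC and at 35.7, 30.8 and 33.8 CPM with siNAT10. The groups overlapped in 1 library, the first CP+siNAT10 library. The mean went from 36.5 ± 0.772 to 33.4 ± 2.46 CPM and lay just inside the limit (log2 fold change -0.13, SE 0.0527, 95% confidence interval -0.24 to -0.02, adjusted p = 0.0491). The call was lost in 9 of 13 alternatives. Without CP+siNAT10 replicate 2 the log2 fold change was -0.07 (adjusted p = 0.308), and over all 13 alternatives the adjusted p ran from 0.0129 to 0.308. Leaving out any of the CP+siNC replicates gave 0.0570, 0.114 and 0.0936, and leaving out CP+siNAT10 replicate 3 gave 0.0708.

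Of the 7 tested genes, 1 was higher (MTF1) and 3 were lower (MT2A, MT1M and SLC30A1) at an adjusted p under 0.05 by edgeR's test, and 3 did not pass. Over all 19874 genes 44.1% were called, 21.8% higher and 22.3% lower, and with 7 genes nothing particular to them can be read from 4 calls beside that background. The groups did not overlap for 3 of the 7 (MT2A, MT1M and MTF1), beside 51.4% of all tested genes, so nothing particular to the 7 can be read from that count either. None of the 7 also had a log2 fold change over 1 in size, against 2.33% of all genes. The median log2 fold change of the 7 was -0.13, beside 0.0070 over all tested genes.

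**Figure D3:**
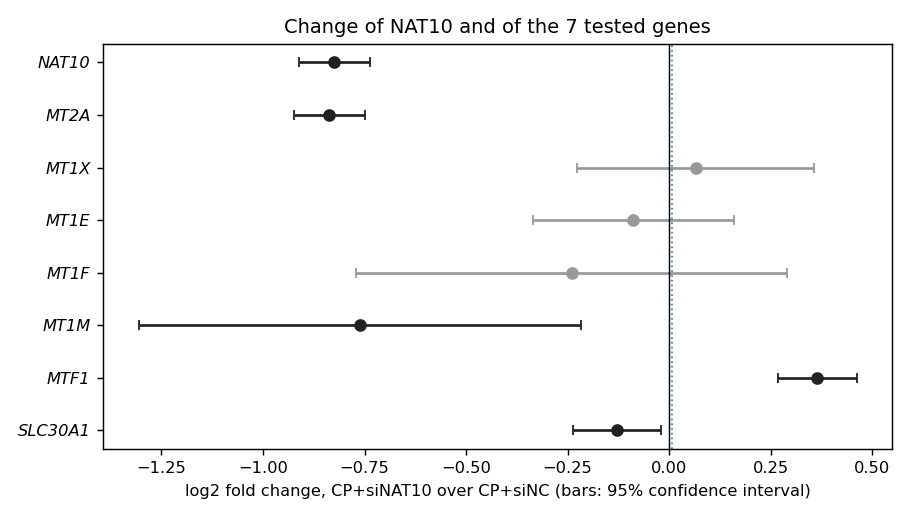
Log2 fold change (CP+siNAT10 over CP+siNC) of NAT10 and of the 7 tested genes, with 95% confidence intervals; black marks an adjusted p under 0.05, grey the others, and the dotted line the median of all tested genes. MT2A (-0.84) and MTF1 (0.36) lie apart from 0 with narrow intervals, and the intervals of MT1X, MT1E and MT1F span 0.

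Levels can be compared between genes only per length. With the gene lengths given in the count table, the mean level per kilobase in the CP+siNC libraries was 107 CPM for MT2A, 6.20 for SLC30A1, 4.43 for MT1E, 3.86 for MTF1, 2.66 for MT1M, 1.89 for MT1X, 0.586 for MT1F and 0.0207 for MT1G. In that order MT1M and MT1X were not separated, with libraries from 1.92 to 3.35 and from 1.63 to 2.06 CPM per kilobase. In the CP+siNAT10 libraries MT2A still led with 59.6 CPM per kilobase, followed by SLC30A1 with 5.67 and MTF1 with 4.98. The order below MT2A depended on the length used. With the length of a GENCODE 29 reference transcript in its place, a choice made after seeing the data, the mean level per kilobase in the CP+siNC libraries was 124 CPM for MT2A, 7.25 for MT1X, 6.67 for SLC30A1, 6.62 for MT1E, 3.87 for MTF1, 1.64 for MT1M, 1.57 for MT1F and 0.0384 for MT1G. On that scale the libraries of MT1X (6.25 to 7.89 CPM per kilobase), SLC30A1 (6.51 to 6.78) and MT1E (6.27 to 7.10) were not separated, nor were those of MT1M (1.18 to 2.07) and MT1F (1.23 to 1.83). MT2A led on both scales in both groups, with 69.3 CPM per kilobase of transcript in the CP+siNAT10 libraries. Its reference transcript of 786 bases takes in 250 bases before the start of the counted gene, which lowers its level on that scale.

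The other zinc transporters moved in both directions. The counts given for this and the following lists stand beside 21.8% higher and 22.3% lower over all tested genes. Of 9 further exporters of the ZnT family, 5 were tested, 2 were higher and 1 was lower, with a median log2 fold change of 0.14. SLC30A5, which moves zinc into the secretory pathway, rose from 36.7 ± 1.53 to 47.8 ± 1.30 CPM (log2 fold change 0.38, SE 0.0471, adjusted p = 1.15e-07). SLC30A9 rose from 26.1 ± 0.234 to 29.3 ± 1.46 CPM (log2 fold change 0.17, SE 0.0535, adjusted p = 0.0108), and SLC30A7 fell from 15.04 ± 1.05 to 11.3 ± 0.333 CPM (log2 fold change -0.41, SE 0.0758, adjusted p = 5.39e-05). Of 14 importers of the ZIP family, 11 were tested, 4 were higher and 3 lower, with a median of -0.05. SLC39A1, an importer of the cell surface, fell from 126 ± 2.84 to 85.7 ± 2.60 CPM (log2 fold change -0.56, SE 0.0368, adjusted p = 4.78e-13). SLC39A6 fell from 136 ± 1.38 to 107 ± 4.13 CPM (log2 fold change -0.34, SE 0.0361, adjusted p = 6.16e-09), and SLC39A7, which releases zinc from the endoplasmic reticulum, rose from 259 ± 1.66 to 303 ± 7.60 CPM (log2 fold change 0.22, SE 0.0325, adjusted p = 1.57e-06).

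Copper is also bound by metallothioneins. All 10 copper genes were tested, with 3 higher, 3 lower and a median of -0.12. SLC31A1, the copper importer that has been described as a route for Cisplatin, rose from 39.2 ± 2.73 to 48.9 ± 1.76 CPM (log2 fold change 0.32, SE 0.0501, adjusted p = 6.58e-06). CCS, the copper chaperone of superoxide dismutase, rose from 26.4 ± 0.902 to 31.5 ± 1.56 CPM (log2 fold change 0.26, SE 0.0538, adjusted p = 0.000252). The copper pump ATP7B rose from 1.06 ± 0.119 to 1.91 ± 0.0758 CPM (log2 fold change 0.84, SE 0.212, adjusted p = 0.00174), while SCO1 fell from 84.3 ± 4.48 to 76.3 ± 2.77 CPM (log2 fold change -0.14, SE 0.0420, adjusted p = 0.00600) and COX17 fell from 75.3 ± 2.74 to 68.5 ± 5.21 CPM (log2 fold change -0.14, SE 0.0462, adjusted p = 0.0160). The COX17 libraries overlapped between groups, at 73.0 to 78.4 CPM with siNC and 64.2 to 74.3 CPM with siNAT10.

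Of 10 other genes described as responsive to MTF1, 8 were tested, 2 were higher and 3 lower, with a median of -0.10. PRNP, which encodes the prion protein, fell from 185 ± 2.96 to 131 ± 3.66 CPM (log2 fold change -0.50, SE 0.0341, adjusted p = 9.75e-13). PGF, a growth factor of vessels, fell from 12.7 ± 0.723 to 8.13 ± 0.886 CPM (log2 fold change -0.63, SE 0.0891, adjusted p = 9.81e-07). NDRG1 rose from 66.2 ± 0.955 to 89.3 ± 4.12 CPM (log2 fold change 0.43, SE 0.0405, adjusted p = 6.61e-10). Both directions were thus present among them. The list was not divided by whether MTF1 is described as raising or lowering each gene. These directions are therefore no measure of what MTF1 does here.

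Of 12 tested genes of metal, oxidant and proteotoxic stress, 7 were lower and 1 was higher, with a median of -0.15, beside 22.3% lower and 21.8% higher over all tested genes. Whether the list differs from other genes was not tested. TXNRD1, the thioredoxin reductase, fell from 676 ± 12.9 to 413 ± 6.76 CPM (log2 fold change -0.71, SE 0.0324, adjusted p = 2.25e-16). SRXN1, which repairs peroxiredoxins, fell from 45.4 ± 1.03 to 31.5 ± 1.64 CPM (log2 fold change -0.53, SE 0.0490, adjusted p = 6.06e-10). Among the heat shock genes, smaller falls were seen for HSPA1A, from 458 ± 9.57 to 390.1 ± 11.0 CPM (log2 fold change -0.23, SE 0.0332, adjusted p = 1.48e-06), for HSPA1B, from 700.0 ± 19.1 to 638 ± 16.04 CPM (log2 fold change -0.13, SE 0.0335, adjusted p = 0.00162) and for HSPH1, from 750.1 ± 21.99 to 666 ± 14.1 CPM (log2 fold change -0.17, SE 0.0334, adjusted p = 0.000108). The heat shock gene HSPA6, named after its value was seen, did not pass the test (log2 fold change -0.29, adjusted p = 0.0869). HSPA1A and HSPA1B are near-identical copies, so their split is uncertain. The 1 higher gene was SLC7A11, the cystine transporter, named after its value was seen, which rose from 3.05 ± 0.228 to 5.46 ± 0.201 CPM (log2 fold change 0.84, SE 0.126, adjusted p = 3.04e-06). HMOX1, also named after its value was seen, was at 11.1 ± 0.178 CPM with siNC and 10.8 ± 0.759 CPM with siNAT10 (adjusted p = 0.764).

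Of 10 genes of the glucocorticoid response, which also acts on MT2A, 9 were tested, 2 were higher and 3 lower, with a median of -0.0021. ERRFI1 fell from 90.9 ± 2.51 to 75.2 ± 1.17 CPM (log2 fold change -0.27, SE 0.0378, adjusted p = 7.65e-07), SGK1 fell from 53.9 ± 3.59 to 48.3 ± 1.88 CPM (log2 fold change -0.16, SE 0.0484, adjusted p = 0.00980) and DUSP1 fell from 152 ± 13.6 to 138 ± 8.72 CPM (log2 fold change -0.14, SE 0.0478, adjusted p = 0.0186). The DUSP1 libraries overlapped between groups, at 138 to 166 CPM with siNC and 129 to 146 CPM with siNAT10. CEBPD rose from 6.38 ± 0.570 to 9.66 ± 0.461 CPM (log2 fold change 0.59, SE 0.0962, adjusted p = 9.06e-06), and FKBP5 rose from 86.5 ± 2.71 to 94.0 ± 3.91 CPM (log2 fold change 0.12, SE 0.0394, adjusted p = 0.0139). The receptor gene NR3C1, named after its value was seen, was at 29.8 ± 1.63 CPM with siNC and 30.6 ± 1.94 CPM with siNAT10 (adjusted p = 0.620).

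The 6 metallothioneins span 75.6 kb on chromosome 16. Within 250 kb of that span the table holds 11 further rows of metallothionein genes and pseudogenes, all too low to test, and 20 other genes. Of these 20 genes 11 were tested, 6 were higher and 2 lower, with a median log2 fold change of 0.17, beside 44.1% called, 21.8% higher and 22.3% lower over all tested genes. Whether the region differs from the rest of the genome was not tested. The nearest tested gene on the left, BBS2, ended 25917 bases away and rose (log2 fold change 0.29, SE 0.0458, adjusted p = 7.01e-06). The nearest on the right, NUP93-DT, began 24254 bases away and was lower (log2 fold change -0.68, SE 0.217, adjusted p = 0.0121), at 2.05 and 1.30 CPM in the 2 groups. Its libraries overlapped between groups, at 1.49 to 2.34 CPM with siNC and 1.14 to 1.57 CPM with siNAT10. The smallest p-values belonged to OGFOD1 (log2 fold change 0.30, adjusted p = 9.65e-08) and NUDT21 (log2 fold change 0.28, adjusted p = 1.17e-07), both higher. The genes on the left overlap each other in part, so their values are not independent.

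The other lower gene, named after its value was seen, was ENSG00000260823, which lies on the opposite strand from chr16:56609501 to 56611375, just past the end of MT2A. It had 19, 19 and 17 counts with siNC and 10, 5 and 4 with siNAT10 (log2 fold change -1.71, SE 0.370, adjusted p = 0.000364). The kit keeps the strand, but whether the counting used it is not given in the sources used here, so reads from MT2A and from this gene may not be fully apart. MT2A had 1814 or more counts in each CP+siNC library and 1112 or more in each CP+siNAT10 library. The part of such mixing in the change of either gene was not tested.

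**Figure D4:**
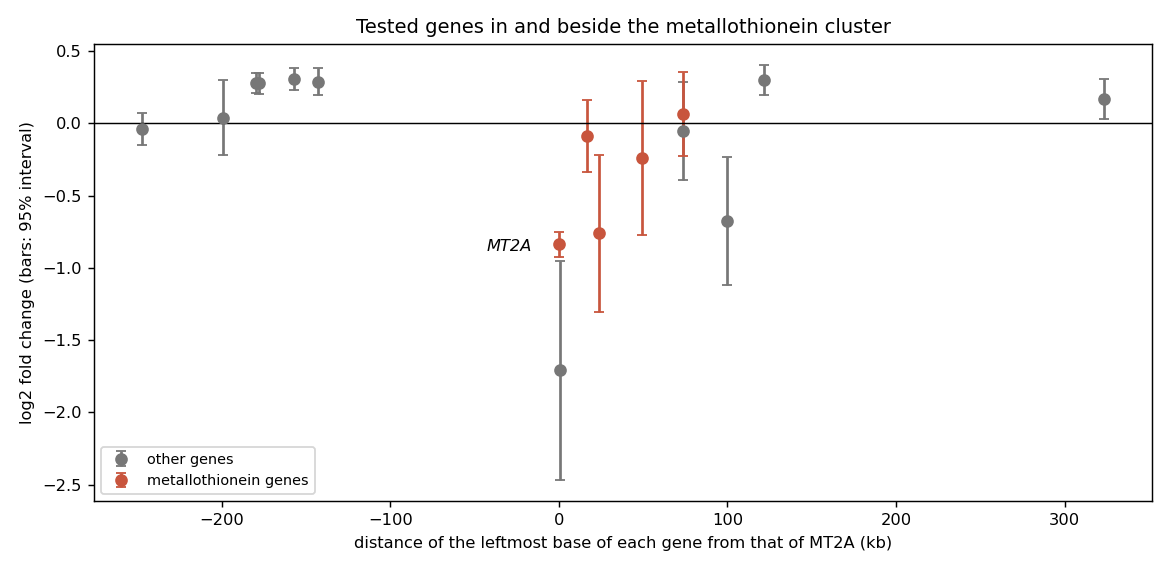
Log2 fold change (CP+siNAT10 over CP+siNC) with 95% confidence intervals of the tested genes in and within 250 kb of the metallothionein cluster, against the distance of each gene's leftmost base from that of MT2A (kb). MT2A at -0.84 stands below the genes to its left, 4 of which lie near 0.28 to 0.30. The lowest point is ENSG00000260823 at -1.71, just past MT2A, and the genes to the right of MT2A lie on both sides of 0.

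The genes whose level over the 6 libraries followed the summed metallothioneins most closely were RPL10A, PGRMC1, CD274, NR2F2 and NEK7, of 12303 ranked. Pearson's r of log2 CPM was 0.999 for RPL10A, and 2469 genes reached at least 0.9. After the group means were taken out, r was 0.970 for RPL10A, 0.954 for PGRMC1, 0.921 for CD274, 0.918 for NR2F2 and 0.915 for NEK7. The 5 genes were picked by their r over these same 6 libraries. Their high r without the group means follows in part from that pick and is no separate support. How it is spread over all ranked genes was not examined. All these r values are descriptions over 6 libraries that share their groups. CD274, the immune checkpoint ligand, had the largest fall of the 5 (log2 fold change -0.88, SE 0.0870, adjusted p = 2.01e-09), and RPL10A was at 78.3% of control.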

How the data were processed

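Gene expression was measured by stranded mRNA sequencing. The authors deposited raw read counts per gene for 6 libraries, with no normalization; the submitters' processing notes name Trimmomatic 0.36, STAR 2.5.3a, featureCounts of Subread 1.5.1, edgeR 3.12.1 and GRCh38. Use of strand, treatment of multi-mapped reads and merging of molecular identifiers are not given in the sources used here.

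Counts were fitted across the whole table in R 4.3.3 with edgeR 4.0.16 (limma 3.58.1): filterByExpr defaults (minimum count 10), TMM scaling, quasi-likelihood test without a block, and Benjamini-Hochberg adjustment over 19874 genes, with a limit of 0.05. A gene without 10 counts in 3 libraries was called low. Alternatives were RLE, upper quartile and no scaling, no filter, at least 50 counts in 3 libraries, DESeq2 1.42.0, a replicate block and leaving out each library; 2 more, MT1X with its overlapping gene and levels per kilobase of reference transcript, were chosen after seeing the data. The scripts were tested on simulated counts. No 2 libraries of a group agreed within sampling noise. Sequences and figures were handled in Python 3.11.15.

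The genes and lists were chosen with earlier results of these data known. Named genes were all 8; NAT10; per list up to 3 tested genes with the smallest p and up to 2 with the highest mean CPM; beside the cluster the nearest tested gene on each side and the 2 with the smallest p; and the 5 genes averaging 5 CPM or more that were most correlated with the summed metallothioneins. MT1A, marker genes too low to test, genes that overlap MT1X or MTF1 and those so marked in the text fall outside this rule and were picked with their values known. Of the genes the rule names, 1 marker gene is not reported here. Total counts were 19321665 to 25192736 per library.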

Additional observations from a re-analysis of the deposited data

How the results depend on the processing

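MT2A and MTF1 kept their direction and an adjusted p under 0.05 in all 13 alternatives, with log2 fold changes of -0.89 to -0.80 and 0.35 to 0.40 and highest adjusted p-values of 8.23e-12 and 9.11e-06 (edgeR's quasi-likelihood test or DESeq2). MT1X, MT1E and MT1F passed in none. The summed metallothionein level kept a log2 ratio of -0.80 to -0.71 in 9 alternatives. The number of the 8 genes that were higher was 1 in all 13. The number that were lower was 3 in the main test, 1 with DESeq2, 1 to 3 when 1 library was left out, and 2 or 3 in the other settings. These differences came from the calls of MT1M and SLC30A1, while MT2A was lower in all 13. What moved those calls was not tested. MT1F and MT1M gave no value with the filter of at least 50 counts.

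Same-numbered libraries of the groups did not deviate together (r = -0.043, 0.0089 and -0.138), so the numbers were not taken to pair them. With a replicate block the log2 fold change of SLC30A1 was -0.13 (adjusted p = 0.0551), and 2 of the 8 genes were lower; no other call among them changed. With library size alone, 57.2% of all calls were higher, against 49.4% in the main test, and the median of all genes shifted by 0.037.

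Depth limits MT1M, MT1F and MT1G, with 0 to 33 counts per library.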
